A study of Homo sapiens with 6 samples.

Results

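The zinc finger genes of chromosome 19 were described as a family in U87-MG cells, a human glioblastoma cell line. The members were all genes of the deposited table named ZNF followed by a number and placed on chromosome 19, without regard to their levels. The rule gave 241 genes of the 61806 in the table. RNA sequencing covered 6 libraries, 3 of the negative control (NC, genotype label wildtype) and 3 with the genotype label GRIK1 knockdown and titles that read GRIK1 siRNA with the numbers 1 to 3. GRIK1 encodes a kainate-type glutamate receptor subunit, and the study asked what its loss does to gene expression in these cells. All 6 libraries came from this single line, and the labels give no passage, time point or dose. The numbers may stand for replicates or for siRNA sequences, and the series' design text names an shRNA instead. The study's text says that the most efficient of its siRNA sequences was carried into later experiments, without naming the sequence used for each library. Nothing says that the libraries came from separate cultures, so p-values measure only the spread between these libraries.

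Zinc finger proteins of this kind bind DNA through tandem C2H2 fingers, each of which reads a few bases. Most chromosome 19 members also carry a KRAB box at the start of the protein, which recruits the scaffold TRIM28 (KAP1) and through it the methyltransferase SETDB1, heterochromatin proteins of the CBX family and deacetylases, and so represses the bound site. Many of these genes arose by tandem duplication, stand side by side in clusters, and recognise families of transposable elements.

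Total counts per library lay between 11099909 and 14006968. GRIK1 itself had 18, 9 and 8 counts in NC and 15, 20 and 20 under the GRIK1 siRNA label. It was thus not lower under the knockdown label (log2 fold change 0.44, SE 0.43, adjusted p = 0.62 in edgeR's quasi-likelihood test with Benjamini-Hochberg adjustment), and the groups are called by their labels throughout. GRIK1 averaged 0.287 FPKM, so these counts are few. The study itself reports efficient knockdown of GRIK1 in U87-MG cells, shown by relative GRIK1 levels rather than by these libraries. NC library 3 stood apart: ribosomal protein genes took 9.37% of its counts, while the remaining 5 libraries gave 4.79% to 5.50%. Results are therefore also given without it. Of the markers of a mesenchymal or glial tumour line, VIM (1001 FPKM), TNC (133), FN1 (69.1) and CD44 (61.3) were abundant, whereas OLIG2 (0.585 FPKM), NES (0.497), GFAP (0.172), SOX2 (0.0467) and S100B (0.0133) were low. Of the markers of other cells, CD3E was at 0, PTPRC (0.0117 FPKM), PECAM1 (0.0267), MBP (0.0383) and RBFOX3 (0.188) were low, and EPCAM (1.53), SNAP25 (1.70) and CD68 (3.27) were present. In bulk RNA, fewer cells of a type and less RNA per cell cannot be told apart.

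Most members were either moderately expressed or at or near 0, and many of those near 0 stood next to each other. FPKM is the count scaled to the exonic length of the gene and to the total count of the library, so that genes of different length can be compared. A mean over the 6 libraries of at least 0.5 FPKM was found for 97 members (40.2%), a mean of 0.1 to 0.5 for 18, and a mean under 0.1 for 126. Of these 126, 63 had no count in any library. A 0 in a single library allows up to 3 counts there, and 0 in all 6 allows less per library. All 126 together collected 41, 41 and 49 counts in NC and 68, 50 and 55 under the GRIK1 siRNA label. The median level of the family was 0.0333 FPKM. The 235 ZNF genes of other chromosomes had a median of 1.90 FPKM, 170 of them (72.3%) reached 0.5 FPKM, and 20 had no count. The 2790 other genes of chromosome 19 had a median of 0.0283 FPKM and 29.9% reached 0.5 FPKM. Over the whole table the median was 0.015 FPKM and 25.7% reached 0.5 FPKM.

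Along the chromosome, 96 of the 126 genes under 0.1 FPKM fell into 7 uninterrupted blocks, each of at least 5 consecutive members. The block with the most members ran from ZNF714 to ZNF254 (chr19:21082159-24129968, build GRCh38), with 24 members of which 18 had no count in any library. The next ran from ZNF566 to ZNF573 (chr19:36445119-37817300), with 23 members and 12 without a count. The others were ZNF610 to ZNF816 (15 members), ZNF14 to ZNF85 (11), ZNF415 to ZNF331 (10), ZNF582 to ZNF835 (7) and ZNF44 to ZNF709 (6). The 96 genes gave 121 counts in all 6 libraries together, and 55 of them gave none. Other genes inside the blocks were low as well: 261 of 267 were under 0.1 FPKM, including all 16 that code for proteins. A low level was common in the table at large, with medians of 0.0283 FPKM over other chromosome 19 genes and 0.015 FPKM over the whole table. These medians cover genes of every kind, coding or not, and the share of low levels among protein-coding genes alone was not computed.

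**Figure D1:**
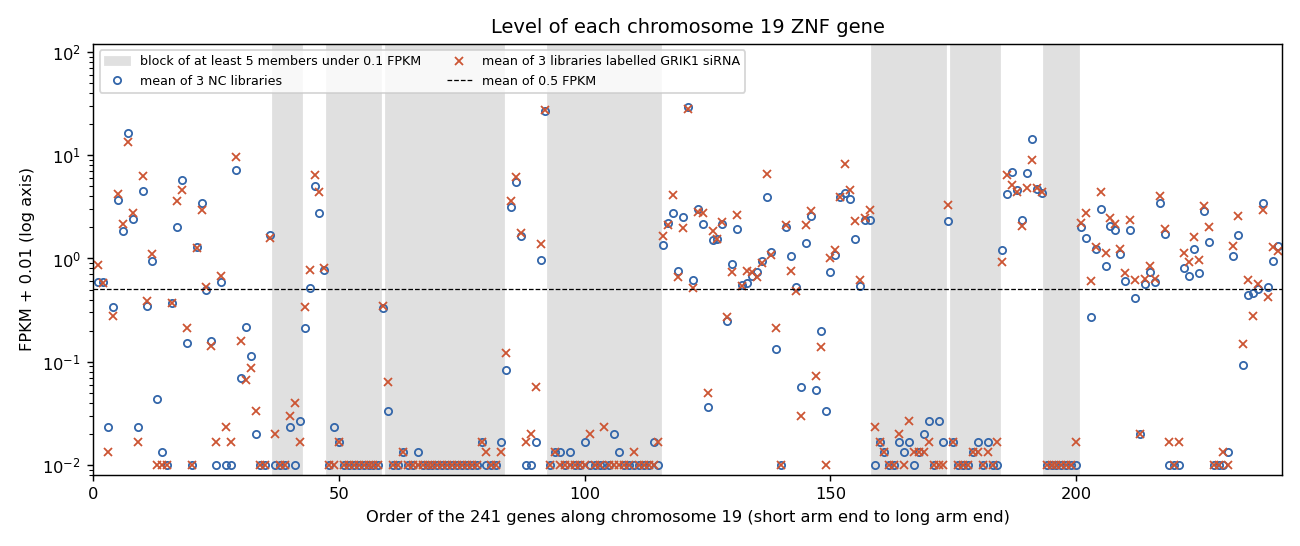
Mean level of each of the 241 chromosome 19 ZNF genes in their order along the chromosome (horizontal axis), as FPKM + 0.01 on a log axis, in the 3 NC libraries (circles) and the 3 libraries labelled GRIK1 siRNA (crosses); grey bands are the 7 blocks and the dashed line marks 0.5 FPKM. Circles and crosses mostly lie close together, and inside the bands nearly every gene sits at the floor, while neighbours just outside lie between 0.265 FPKM (ZNF564) and 27.1 FPKM (ZNF146), apart from ZNF536 at 0.0917 FPKM.

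The promoter sequences of the genes on either side of 3 block edges are shown because expressed and near-silent members lie side by side there. Each run is the 250 bases before the RefSeq start of the gene (GRCh38.p14), written 5′ to 3′ on the strand of the gene, with every CG dinucleotide in capitals. The first of each pair is the expressed gene.
ZNF146 (chr19:36214856-36215105, plus strand): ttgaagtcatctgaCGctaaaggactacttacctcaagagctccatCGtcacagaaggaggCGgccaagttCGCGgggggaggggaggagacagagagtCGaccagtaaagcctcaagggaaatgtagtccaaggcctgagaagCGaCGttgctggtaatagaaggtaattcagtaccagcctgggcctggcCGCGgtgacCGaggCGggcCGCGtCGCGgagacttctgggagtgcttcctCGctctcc
ZNF566 (chr19:36489562-36489811, minus strand): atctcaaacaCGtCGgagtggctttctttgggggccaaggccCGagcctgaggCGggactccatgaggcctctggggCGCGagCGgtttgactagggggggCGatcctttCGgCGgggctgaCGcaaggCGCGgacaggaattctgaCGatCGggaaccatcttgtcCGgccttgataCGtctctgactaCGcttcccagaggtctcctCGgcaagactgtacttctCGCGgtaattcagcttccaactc
ZNF160 (chr19:53103423-53103672, minus strand): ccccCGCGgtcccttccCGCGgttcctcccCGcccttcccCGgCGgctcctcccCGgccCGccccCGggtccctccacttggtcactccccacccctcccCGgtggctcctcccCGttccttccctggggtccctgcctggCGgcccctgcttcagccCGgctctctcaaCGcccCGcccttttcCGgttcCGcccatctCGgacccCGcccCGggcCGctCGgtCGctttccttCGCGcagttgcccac
ZNF415 (chr19:53132911-53133160, minus strand): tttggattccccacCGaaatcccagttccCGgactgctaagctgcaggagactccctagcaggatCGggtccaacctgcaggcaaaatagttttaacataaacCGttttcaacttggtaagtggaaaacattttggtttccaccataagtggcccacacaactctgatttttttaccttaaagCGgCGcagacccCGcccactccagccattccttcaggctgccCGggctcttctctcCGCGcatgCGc
ZNF264 (chr19:57191250-57191499, plus strand): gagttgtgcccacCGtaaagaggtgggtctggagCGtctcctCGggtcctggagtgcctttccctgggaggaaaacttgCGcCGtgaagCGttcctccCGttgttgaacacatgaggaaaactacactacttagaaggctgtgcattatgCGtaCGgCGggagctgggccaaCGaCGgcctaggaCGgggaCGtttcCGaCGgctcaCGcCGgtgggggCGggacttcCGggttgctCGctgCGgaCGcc
ZNF835 (chr19:56671758-56672007, minus strand): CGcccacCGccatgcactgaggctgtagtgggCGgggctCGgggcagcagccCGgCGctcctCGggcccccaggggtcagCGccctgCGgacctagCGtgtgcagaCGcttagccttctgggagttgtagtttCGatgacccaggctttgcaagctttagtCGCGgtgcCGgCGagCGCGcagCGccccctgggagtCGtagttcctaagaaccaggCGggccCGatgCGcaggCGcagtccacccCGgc
ZNF146 averaged 27.1 FPKM, and ZNF566, 206.3 kb away, had no count in any of the 6 libraries. Their windows held 17 and 21 CG dinucleotides, so the silent gene of this pair had the more CG-rich window. ZNF160 had 267, 218 and 202 counts in NC and 330, 366 and 368 under the GRIK1 siRNA label (2.77 FPKM), and ZNF415, 4.4 kb away on the same strand, had 1 count in NC library 3, 1 in GRIK1 siRNA library 1 and none elsewhere. Here the expressed gene had 26 CG and its silent neighbour 11. ZNF264 averaged 2.11 FPKM and ZNF835, at the end of the block 519.7 kb away, had 1 count in all, with 23 and 25 CG in their windows. The pairs thus gave no common order of CG content between the expressed and the silent gene.

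The blocks were not alike in CG content, with medians from 9 to 29.5. In RefSeq windows of 300 bases (250 before to 50 after the start), the median over 27305 genes was 14 CG. The blocks ZNF14 to ZNF85 and ZNF714 to ZNF254 had medians of 9 and 10, and the block ZNF44 to ZNF709 had 16. The remaining 4 blocks, from ZNF566 onwards, had medians of 22, 26, 25 and 29.5. Members of at least 0.5 FPKM had a median of 22 and members under 0.1 FPKM a median of 18, over the 210 members with a RefSeq window. Methylation of these windows was not measured in these libraries.

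Near-identical copies can lose reads that match more than 1 gene, and how such reads were counted is not given in the sources used here. Shared sequence was measured as the percent of all 50-base stretches of a gene's transcripts found in no other GENCODE 29 gene. The median was 95.3% for members of at least 0.5 FPKM and 95.6% for members under 0.1 FPKM. In the 7 blocks, 76 of 96 members had at least 90% of their stretches to themselves, and the block medians ran from 86.6% (ZNF44 to ZNF709) to 99.3% (ZNF582 to ZNF835). Only 9 of the 241 members were under 50%, and 6 of those were under 0.1 FPKM.

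ZNF91 and ZNF93, both known for repressing transposable elements, were near or at 0. ZNF91, a repressor of SVA elements with 31 fingers in its longest open reading frame, had 0, 1 and 1 counts in NC and 0, 2 and 0 under the GRIK1 siRNA label. ZNF93, which binds LINE-1 elements, had none in any library. Its relatives ZNF43, ZNF85 and ZNF90 also had none, ZNF100 had 1 count (NC library 3), and ZNF675, an inhibitor of TRAF6 signalling, had 1 (GRIK1 siRNA library 1). These genes all lay in the blocks ZNF14 to ZNF85 and ZNF714 to ZNF254, where ZNF101 (0.782 FPKM) at the outer edge was the only member tested of 37 in that run of neighbours.

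Further members with known roles were split between silent and expressed. ZNF382, a KRAB repressor studied as a tumour suppressor, ZNF568, whose mouse counterpart represses a placental Igf2 promoter, and ZNF540 had no count in any library. ZNF331, an imprinted gene, had 2 counts in GRIK1 siRNA library 1 and none elsewhere. ZNF649 was under the level for testing, with 0.19 FPKM ± 0.02 (SD, n = 3) in NC and 0.13 ± 0.0608 under the GRIK1 siRNA label. ZNF274, which brings SETDB1 to zinc finger genes, ZNF224, a repressor of the aldolase A gene, ZNF350, a partner of BRCA1, and ZNF8 were expressed at a mean of 0.5 FPKM or more.

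The highest level belonged to ZNF428, a protein with 1 finger, at 29.4 FPKM ± 2.18 (SD, n = 3) in NC and 28.1 ± 1.57 under the GRIK1 siRNA label. ZNF146 (OZF), made of 10 fingers and little else, followed at 26.8 ± 4.11 and 27.4 ± 0.983 FPKM. ZNF358 stood at 16.6 ± 1.97 and 13.4 ± 2.70, ZNF581 at 14.2 ± 2.26 and 8.94 ± 0.731, and ZNF700 at 7.15 ± 1.86 and 9.63 ± 0.56 FPKM. The top neighbours in this order, ZNF428 and ZNF146, lay within their spread of each other. Of these 5 genes only ZNF700 had the KRAB box pattern.

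A KRAB box pattern was found in the longest open reading frame of 203 members and was missing in 38. The pattern is a match to a short amino acid motif, and how many KRAB boxes it misses was not measured. Of the members with the pattern 71 of 203 (35.0%) reached 0.5 FPKM, and of those without it 26 of 38 (68.4%). In the 7 blocks, 88 of 96 members had the pattern. Among the tested members, those with the pattern had a median of 12 fingers, an exonic length of 5623 bases and 1.61 FPKM. Those without it had 8 fingers, 3524 bases and 3.09 FPKM.

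Together the 241 genes took 0.129%, 0.127% and 0.114% of all counts in NC and 0.141%, 0.144% and 0.143% under the GRIK1 siRNA label. The 2 groups did not overlap, and the ratio of their means was 1.16. Without NC library 3 the groups were still apart and the ratio was 1.11. The ratio was smaller when the libraries were rescaled, at 1.09 with median-of-ratios factors, 1.07 with TMM factors over all genes with a count, and 1.08 for the sum of FPKM. The 203 genes with the KRAB pattern took 0.0800%, 0.0791% and 0.0687% in NC and 0.0911%, 0.0956% and 0.0944% under the GRIK1 siRNA label, again without overlap. The 38 genes without it took 0.0489%, 0.0476% and 0.0455% in NC and 0.0495%, 0.0482% and 0.0485% under the GRIK1 siRNA label, where the groups overlapped. ZNF genes of other chromosomes took 0.505%, 0.493% and 0.418% in NC and 0.523%, 0.524% and 0.517% under the GRIK1 siRNA label. The lowest value of each of these sets was in NC library 3, the library with the highest ribosomal protein share, and the part of that library in the differences was not tested beyond leaving it out.

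**Figure D2:**
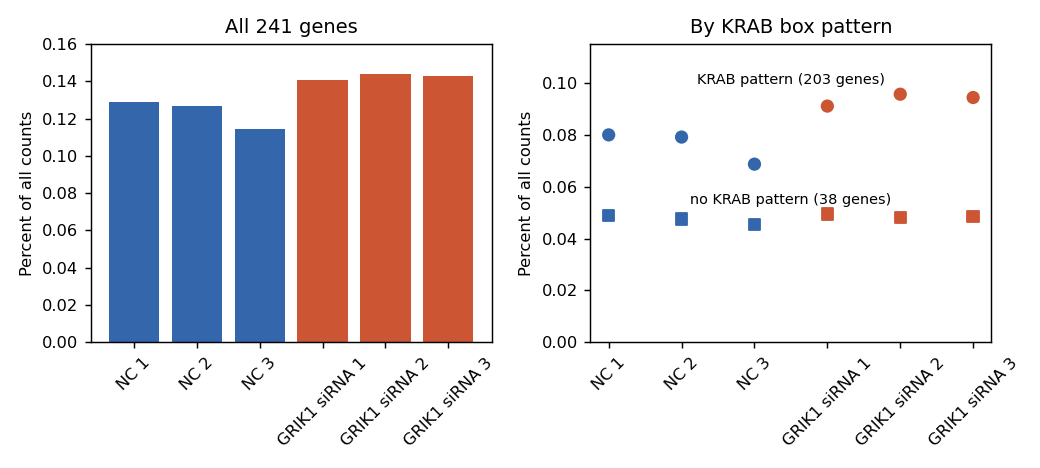
Percent of all counts of a library that fell on the chromosome 19 ZNF genes (vertical axes, from 0), for all 241 genes as bars (left) and for the 203 genes with and 38 without the KRAB box pattern as points (right), in NC libraries 1 to 3 (blue) and libraries labelled GRIK1 siRNA 1 to 3 (orange). All 3 orange bars and KRAB points lie above all 3 blue ones, whereas the points of genes without the pattern overlap.

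Gene by gene, differences between the groups were small. The 97 members that reached 0.5 FPKM were tested among 15870 genes with edgeR's quasi-likelihood test, and 1 member was called higher and 0 lower at an adjusted p under 0.05, beside 1.61% of all tested genes called higher and 1.48% called lower. At an unadjusted p under 0.05 there were 14 members higher and 3 lower, beside 12% and 13.2% of all tested genes. DESeq2 called 5 members higher and 1 lower, beside 5.88% and 5.57% of the 14638 genes to which it gave an adjusted p. Without the filter on level, edgeR called 3 of 178 members higher and 1 lower, beside 2.13% and 1.98% of 34080 genes. With the filter and all 6 libraries, none of the 97 members differed by more than 1 on the log2 scale. Of all 15870 tested genes 1486 did. Without the filter 45 of the 178 members did, as did 11874 of all 34080 genes, and 0 and 664 of these were called. The median log2 fold change of the 97 was 0.09 and 60 of them (61.9%) were positive, against a median of -0.02 and 48.6% positive over all tested genes. The 170 tested ZNF genes of other chromosomes had a median of 0.09 and 60.0% positive, and the other 833 tested genes of chromosome 19 had 0.00 and 50.3%. The 3 values of the groups did not overlap for 22 members with higher and 6 with lower values under the GRIK1 siRNA label, and for 19.4% and 19% of all tested genes in these directions.

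ZNF805, a KRAB member with 13 fingers (chr19:57240632-57262728, plus strand), was the gene that rose. It had 194, 193 and 187 counts in NC and 319, 380 and 361 under the GRIK1 siRNA label, which is 1.58 FPKM ± 0.234 (SD, n = 3) against 2.73 ± 0.217. The groups did not overlap. NC library 3, at 1.31 FPKM, was below the other NC libraries at 1.72 and 1.71 FPKM. The log2 fold change was 0.71 with an SE of 0.13 and an adjusted p of 0.041 in edgeR's quasi-likelihood test. It was 0.65 without NC library 3, with an adjusted p of 0.00014 in edgeR. The adjusted p in edgeR lay above 0.05 when any other library was left out, from 0.080 to 0.23. In those other settings 0 of all 15870 tested genes were called.

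The other members with the highest positive values did not pass the test in all 6 libraries. ZNF432 had 5.61, 4.67 and 2.74 FPKM in NC and 8.39, 8.40 and 8.0 under the GRIK1 siRNA label, a log2 fold change of 0.86 (SE 0.21, adjusted p = 0.068 in edgeR). It shares its strand and position with ZNF841 (4.18 FPKM), so reads of the 2 genes may be mixed. ZNF121, with 9 fingers and no KRAB pattern, had 2.13, 2.46 and 1.42 FPKM in NC and 3.14, 3.72 and 3.90 under the GRIK1 siRNA label (0.77, SE 0.19, adjusted p = 0.069 in edgeR). ZNF233 and ZNF333, both with the KRAB pattern, had log2 fold changes of 0.70 and 0.62 (adjusted p = 0.17 and 0.093 in edgeR). In all 4, NC library 3 was the lowest of the 6 libraries and the groups did not overlap. Without that library the values were 0.66, 0.62, 0.42 and 0.48, and all 4 passed, with adjusted p-values in edgeR from 1.5e-05 to 0.0036.

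The members with the most negative values were short genes without the KRAB pattern. ZNF581 had 13.1, 12.8 and 16.9 FPKM in NC and 9.38, 9.35 and 8.10 under the GRIK1 siRNA label, a log2 fold change of -0.77 (SE 0.19, adjusted p = 0.072 in edgeR). Its neighbour ZNF580 had 8.34, 6.77 and 5.29 FPKM in NC and 5.64, 4.72 and 4.10 under the GRIK1 siRNA label (-0.57, SE 0.18, adjusted p = 0.12 in edgeR). The 2 genes overlap on the same strand, together with CCDC106 (6.46 FPKM), so that their values are not independent and their reads may be divided between them. Without NC library 3 they had -0.56 and -0.68 and both passed, with adjusted p-values of 0.00071 and 0.00087 in edgeR. ZNF296 (-0.53, 10 to 25 counts per library), ZNF524 (-0.50) and ZNF576 (-0.48) did not pass in either setting, with adjusted p-values of 0.40, 0.25 and 0.22 in all 6 libraries and 0.16, 0.15 and 0.23 without NC library 3 in edgeR.

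**Figure D3:**
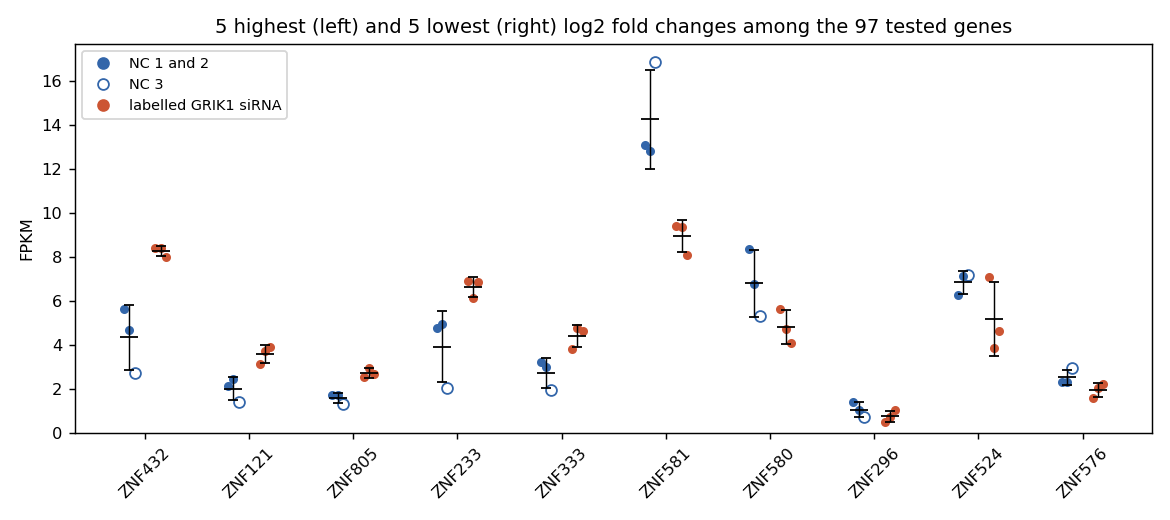
Level in FPKM (vertical axis, from 0) of the 5 tested chromosome 19 ZNF genes with the highest and the 5 with the lowest log2 fold change, in the NC libraries (blue, NC library 3 as an open circle) and the libraries labelled GRIK1 siRNA (orange), with the mean and SD of each group of 3. NC library 3 lies below the other NC libraries in ZNF432, ZNF121, ZNF805, ZNF233 and ZNF333, and ZNF581 stands at 12.8 to 16.9 FPKM in NC against 8.10 to 9.38.

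Among the members with known roles, ZNF274 had 183, 206 and 104 counts in NC and 275, 266 and 286 under the GRIK1 siRNA label (log2 fold change 0.56, SE 0.27, adjusted p = 0.24 in edgeR). ZNF350 had 0.34, ZNF8 0.43 and ZNF224 0.41 as log2 fold changes, with adjusted p-values of 0.53, 0.39 and 0.45 in edgeR. In ZNF224 the difference lay in NC library 3 (84 counts, against 180 to 242 in the other 5 libraries), and without it the log2 fold change was 0.08. In ZNF8 the same library was the lowest (29 counts, against 51 to 73 in the others), and without it the value was 0.15. ZNF224 also has only 60.2% of its 50-base stretches to itself. ZNF274 and ZNF350 passed without NC library 3, at 0.28 and 0.69 (adjusted p = 0.049 and 0.045 in edgeR). ZNF350 depended on NC library 1 as well, and had 0.07 without it (adjusted p = 0.87 in edgeR). ZNF146 had -0.07 with all 6 libraries and 0.14 without NC library 3, and passed in neither.

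Without NC library 3, edgeR called 20 members higher and 7 lower, beside 16.9% and 18.3% of all tested genes. The median log2 fold change of the 97 was 0.14 and 71.1% were positive, while over all tested genes the median was 0.01 and 50.7% were positive. For ZNF genes of other chromosomes the median was 0.03 and 55.9% were positive. The 7 called lower, named after their values were seen, were ZNF628, ZNF284, ZNF580, ZNF581, ZNF358, ZNF865 and ZNF444, with log2 fold changes from -0.70 to -0.28. Those called higher ranged from 0.28 (ZNF274) to 0.79 (ZNF329, also named after its value was seen). This library was singled out because its ribosomal protein share stood apart.

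Members with and without the KRAB pattern had medians of opposite sign. Of the 71 tested members with the pattern, 51 had a positive log2 fold change, with a median of 0.13, and of the 26 without it 9 were positive, with a median of -0.08. Without NC library 3 the medians were 0.17 (59 of 71 positive) and -0.12 (10 of 26). In that setting 15 members with the pattern were called higher and 1 lower, and 5 without it were called higher and 6 lower. Of all tested genes 16.9% were called higher and 18.3% lower there. With all 6 libraries, the groups did not overlap for 18 of the 71 members with the pattern with higher values and 1 with lower. Of the 26 without it these numbers were 4 and 5, and of all tested genes 19.4% and 19%. The difference between the 2 classes was not tested, since genes are not replicates of a condition.

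The family was next described against gene length. Over the 97 tested members the log2 fold change had a Spearman correlation of 0.38 with exonic length (0.30 without NC library 3), whereas over all 15870 tested genes it was -0.01. The points share the same 6 libraries, and members with the KRAB pattern were longer. Within the 71 members with the pattern the correlation was 0.17, and -0.04 without NC library 3. Within the 26 without it the correlation was 0.66, and 0.62 without NC library 3. All 4 members under 2000 bases were negative (median -0.52), and 11 of 12 members of 8000 bases or more were positive (median 0.39). In the bins between, from 2000, 4000 and 6000 bases, members had medians of -0.03, 0.16 and 0.07. All tested genes had medians of 0.13, -0.14, -0.08, -0.02 and 0.09 from the shortest bin to the longest. Without NC library 3 those of all genes were 0.069, -0.057, -0.028, 0.002 and 0.075. From 2000 bases upward the median of all genes thus rose with length as well, which a single correlation over all lengths does not show. Under 2000 bases, 55.3% of all tested genes were positive. The shortest and the longest tested members, ZNF524 (1441 bases) and ZNF814 (13421 bases), had log2 fold changes of -0.50 and 0.36 (adjusted p = 0.25 and 0.38 in edgeR). Without NC library 3 these were -0.40 and 0.13.

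**Figure D4:**
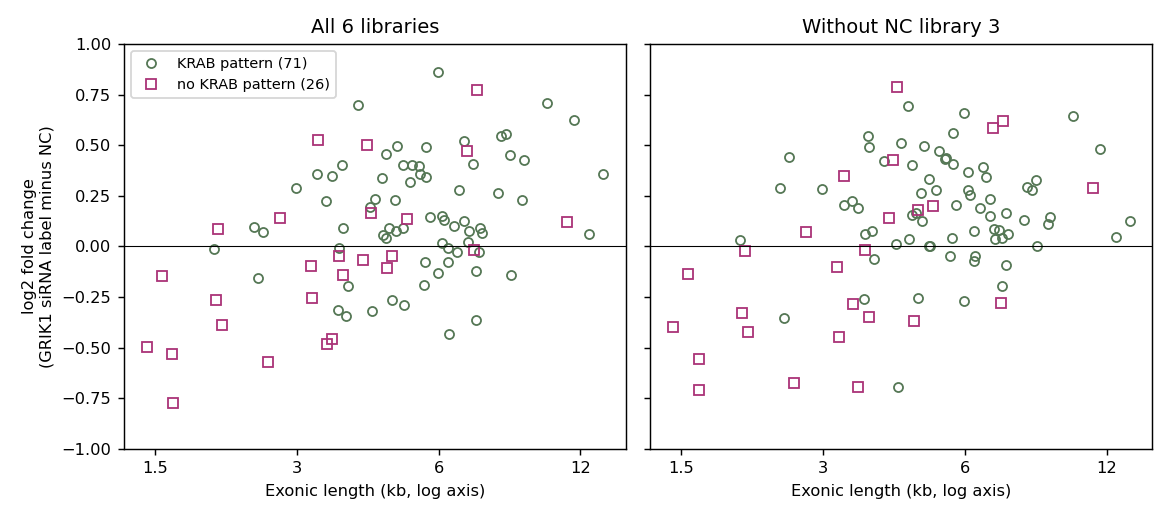
Log2 fold change (GRIK1 siRNA label minus NC, vertical axis) of the 97 tested chromosome 19 ZNF genes against their exonic length in kb (log axis), with all 6 libraries (left) and without NC library 3 (right). Squares (26 genes without the KRAB pattern) climb from the lower left to the upper right in both panels, while circles (71 genes with it) lie mostly above 0 and show less slope.

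Against level, members and all genes showed different courses. The Spearman correlation of log2 fold change with mean FPKM was -0.01 over the members and -0.24 over all tested genes. Without NC library 3 the correlations were -0.07 and -0.13, which lie closer together. Members of 0.5 to 1, 1 to 2 and 2 to 4 FPKM had medians of 0.08, 0.10 and 0.11, and 18 members of at least 4 FPKM had -0.03, with 8 positive. All tested genes in these bins had medians of 0.23, 0.12, 0.03 and -0.10. Without NC library 3 members had 0.17, 0.14, 0.17 and -0.01, and all tested genes had 0.15, 0.06, -0.001 and -0.024. Members thus kept nearly the same median up to 4 FPKM, whereas that of all genes declined from bin to bin, less steeply without NC library 3.

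Runs of neighbouring members differed in how many of their genes were tested. A run joins members that start less than 1 Mb from the next, which gave 16 runs. In the run ZNF575 to ZNF296, 20 of 24 members were tested, but only 6 of the 20 had a positive log2 fold change (median -0.13, and -0.03 without NC library 3). In the run ZNF628 to ZNF446, 38 of 57 were tested and 27 were positive (median 0.09). In the run ZNF175 to ZNF331, 11 of 39 were tested and 9 were positive (median 0.20). The run ZNF565 to ZNF573 had 2 tested members of 25, ZNF565 and ZNF146, which overlap on opposite strands. Without a known strand setting, reads from sequence that both genes share may be mixed. Of the transcript stretches of ZNF565 and ZNF146, 90.9% and 91.6% were found in no other gene. Overlap was common, since 49 of the 97 tested members shared their position with another gene of at least 0.1 FPKM.

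The partners through which KRAB proteins act were all expressed. All 23 genes of a list of co-repressors and chromatin enzymes were tested, and 1 was called lower and 0 higher (1.48% and 1.61% of all tested genes), with 13 of 23 positive and a median log2 fold change of 0.04. CBX5, which encodes the heterochromatin protein HP1 alpha, fell from 11.3 FPKM ± 0.387 (SD, n = 3) to 7.80 ± 0.241, a log2 fold change of -0.62 (SE 0.12, adjusted p = 0.043 in edgeR). TRIM28 stood at 32.8 ± 6.56 FPKM in NC and 29.3 ± 2.79 under the GRIK1 siRNA label (-0.24, adjusted p = 0.33 in edgeR), and passed without NC library 3 (-0.34, adjusted p = 0.00048). SETDB1 stood at 5.03 ± 2.17 and 5.67 ± 0.275 FPKM (0.11, adjusted p = 0.82 in edgeR), and its sign turned without NC library 3 (-0.17). Without that library 5 of the 23 were called higher and 7 lower, beside 16.9% and 18.3% of all tested genes, with a median of -0.11. The call of CBX5 held without it (-0.54, adjusted p = 4.3e-07 in edgeR). This call was lost when any other library was left out, with adjusted p-values in edgeR from 0.083 to 0.25. In those other settings 0 of all 15870 tested genes were called.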

How the data were processed

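RNA from 3 NC libraries and 3 libraries labelled GRIK1 siRNA of U87-MG cells was sequenced. The authors deposited whole-number counts per gene, without normalization, and FPKM values computed from them by exonic length and library total, a formula that gave 100% of the FPKM values. The submitters' processing notes name cutadapt 1.9.1, HISAT2, HTSeq and GRCh38. Strand setting and annotation release are not given in the sources used here. The total counts of 11099909 to 14006968 per library set the precision. A count of 0 allows up to 3 counts at 95%, and this limit covers counting error only.

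Groups were taken from the labels. The 15870 genes that averaged 0.5 FPKM or more entered edgeR (4.0.16, under R 4.3.3). Libraries were scaled by TMM, the quasi-likelihood F test had no covariate, and p-values were adjusted by Benjamini-Hochberg over all of them; called means an adjusted p under 0.05. Standard errors were derived from the F statistics. The alternatives were median-of-ratios scaling, DESeq2 1.42.0, no filter, a mean of at least 1 FPKM, the replicate number as a block, a log2 fold change over 1, each library left out in turn, and, chosen after seeing the data, members with at least 90% unshared sequence. Scripts were tested on simulated data.

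All 241 members were found in GENCODE 29, where 103 had the same start and end. The KRAB box pattern, finger counts and unshared 50-base stretches were read from GENCODE 29 transcripts, and promoter windows from RefSeq (GRCh38.p14), which matched 210 members. The genes named were the 5 with the highest level, those called, the 5 highest and 5 lowest log2 fold changes, a list with known roles, the shortest and longest tested member, TRIM28, SETDB1, called co-repressors and GRIK1; the genes beside block edges were added for the sequences. Members and lists were chosen with earlier results of these data known.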

Additional observations from a re-analysis of the deposited data

How the results depend on the processing

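Of the 22 named genes tested, 20 had 1 sign under all alternatives; with 1 library left out, ZNF146 ranged from -0.18 to 0.14 and SETDB1 from -0.17 to 0.32, both changing sign without NC library 3 (adjusted p = 0.069 and 0.10 in edgeR). Leaving out 1 library at a time, members called higher ranged from 0 to 20 and lower from 0 to 7, all calls coming without NC library 3. Over all 15870 tested genes the calls ranged from 0 to 2682 higher and from 0 to 2909 lower, again all without NC library 3. In the same range, members apart and lower numbered 7 to 12, beside 3372 to 4491 of all 15870 tested genes. The median log2 fold change of the members was 0.051 to 0.14, the percent positive 53.6 to 71.1, and the called co-repressors 0 to 12. DESeq2 called 5 members higher, 1 lower (5.88% and 5.57% of genes with an adjusted p) and 4 co-repressors. Without a filter, 3 were called higher, 1 lower (2.13% and 1.98% of all genes), with 4 co-repressors, a median of 0.04 and 52.8% positive. In that setting 12 members were apart and lower, beside 3789 of all 34080 genes. At a mean of at least 1 FPKM, 3 members were apart and lower, beside 2612 of all 13030 genes, and the median was 0.12. With a log2 fold change over 1, 0 members and 0 co-repressors were called, beside 224 of all 15870 tested genes. The ratio of shares was 1.09 with median-of-ratios scaling, 1.07 with TMM and no filter and 1.08 for summed FPKM. With the replicate block, 0 members and 0 co-repressors were called, as were 0 of all 15870 tested genes. Same-numbered libraries deviated from their group means with correlations of -0.07, 0.04 and -0.04, and differently numbered ones with -0.06 to 0.08. These correlations cannot settle whether the numbers pair the libraries, since each deviation is from a mean of 3 libraries. The cause of the shifts between settings was not tested. Restricting by RefSeq protein motif or protein identity was not run, since protein sequences were not used here. Depth limits the 126 members under 0.1 FPKM, which were not tested with the filter.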
